A study of Apostichopus japonicus with 3 samples.

Results

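The antioxidant enzymes and NADPH oxidases of the sea cucumber Apostichopus japonicus were followed in the body wall under 3 lighting conditions. They were the isotigs (assembled transcripts) whose first KEGG orthology name held the words thioredoxin, peroxiredoxin, glutathione, glutaredoxin, superoxide dismutase, catalase, methionine sulfoxide, dual oxidase or NADPH oxidase. This rule took 67 of the 21290 isotigs listed in any library. The animals had been assigned to groups at random. The control animals stayed in natural light of about 100 lux. The dark animals spent 2 h in a tank covered with shade cloth, and the light animals spent 2 h under strong light of about 2000 lux. Each group has 1 library, the labels name no genotype or age, and the number of animals behind it is not stated in the labels.

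Superoxide dismutases turn superoxide into hydrogen peroxide, and catalase and the peroxiredoxins break the peroxide down. Thioredoxin and glutathione hand electrons to peroxiredoxins and to oxidised proteins, and thioredoxin reductase and glutathione reductase recharge them with electrons from NADPH. Glutathione S-transferases couple glutathione to foreign or damaged molecules. Dual oxidase works in the opposite sense: it is a membrane NADPH oxidase that releases hydrogen peroxide outside the cell and carries a peroxidase-like domain on its outer side. In mammals and insects it is known from barrier epithelia such as airway and gut, and in the sea urchin from the egg surface, where its peroxide hardens the fertilisation envelope.

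The libraries held 1.57 M (control), 1.70 M (dark) and 1.64 M (light) uniquely assigned reads. With 1 library per group no difference between conditions can be tested. Each ratio below compares a pair of libraries, and its 95% interval (exact conditional binomial) covers counting error only. Log2 ratios are of RPKM (reads per kilobase of isotig and per M library reads) plus 0.5. Folds are of reads per library total. Over all 18225 isotigs that averaged 1 RPKM or more, the median log2 ratio was 0.00 in light vs control and -0.31 in dark vs control. Where a 2-fold call in the dark depends on this shift, the value relative to that median or with median-of-ratios size factors is also given. Several group directions in the dark depend on it too. The median dark log2 ratio went from -0.23 to 0.08 with size factors for superoxide dismutases and from -0.29 to 0.02 for glutaredoxins. For glutathione synthesis and recycling it went from -0.10 to 0.20, and for the selenium group described below from -0.20 to 0.12. Some single enzymes changed sign as well. The tissue labels disagree, naming body wall in some fields and intestine in the source field. The fixed body wall list matched 1 isotig, with 487, 457 and 424 control, dark and light reads (0.0310%, 0.0269% and 0.0258%). Fibrillar collagen, by a wording adapted after the files were seen, took 2.08%, 1.96% and 2.31% over 4 isotigs. The former was lowest and the latter highest under strong light. Pancreatic-type digestive enzymes, picked from within the fixed intestinal list and not fixed beforehand, took 0.253%, 0.250% and 0.253% over 15 isotigs. Most of it was trypsin, with 3366, 3565 and 3812 reads. This even total held parts that differed. Pancreatic lipase-related protein 1 had 533, 607 and 297 reads, lipase-related protein 2 had 53, 49 and 34, and alpha-amylase had 22, 21 and 14. These were lowest under strong light, where trypsin was highest. The carboxypeptidases A1 and A2 were at 0 in the dark library and at 1 or 2 reads in the others. The fixed intestinal list was 0.411%, 0.360% and 0.396% of reads. Of its 53 isotigs, 50, 46 and 47 had reads. Neurotrypsin, a serine protease known from the nervous system of mammals, named 23 of the 53, with 2093, 1632 and 1954 reads. Outside the digestive enzymes above, aminopeptidase N had 170, 91 and 220 reads, maltase-glucoamylase 97, 60 and 78, and triacylglycerol lipase 87, 44 and 78. Macrophage elastase was highest in the dark, with 23, 34 and 23, and carboxypeptidase A6 had 1 read, in the dark. The coelomocyte list (60, 59 and 60 of 64 isotigs with reads) took 1.57%, 1.68% and 1.46%. The muscle list (89, 79 and 87 of 97) took 0.421%, 0.322% and 0.437%. The nerve list (10, 11 and 11 of 12) took 0.0274%, 0.0109% and 0.0236%. The part of these cell types in the ratios below was not tested. In tissue RNA, fewer cells of a type and less RNA per cell cannot be told apart.

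The 67 members carried 20 orthology names, 9 of them with a single isotig, and 60 members had reads in all 3 libraries. Of the 67, 61 reached the mean of 1 RPKM and entered the counts below. No name in the tables used here matched methionine sulfoxide reductase, glutathione peroxidase or an NADPH oxidase other than dual oxidase. Another 8 isotigs had a matching name only as a lower-ranked hit, such as glutathione S-transferase behind prostaglandin-H2 D-isomerase, and are not counted. The best hit of 22 members was a sea urchin protein (Strongylocentrotus purpuratus) and that of 10 an amphioxus protein (Branchiostoma floridae). The best hit had an E-value above 1e-10 for 5 members: 2 thioredoxin 1 isotigs, 2 hydroxyacylglutathione hydrolase isotigs and the glutathione gamma-glutamylcysteinyltransferase isotig, whose names are uncertain. The tested members had a median level of 20.7 RPKM in the control library, against 15.0 RPKM over all tested isotigs. Their median mean count was 36.3 reads, against 18 over all tested isotigs. Shares of members past 2-fold, or with an interval that excludes 1, are thus set against less deeply counted isotigs. No adjustment was made for this.

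All members together took 0.532% of control reads (95% Wilson interval 0.521 to 0.543), 0.392% of dark reads (0.383 to 0.402) and 0.661% of light reads (0.649 to 0.673). Much of this was dual oxidase, which made up 46.5% of the member reads in control, 33.3% in the dark and 52.7% under strong light. Without it the members took 0.284% (0.276 to 0.293), 0.262% (0.254 to 0.270) and 0.313% (0.305 to 0.322). On the RPKM scale dual oxidase led in control and light, followed by the 22 glutathione S-transferase isotigs as a sum. In the dark these sums stood at 634 and 648 RPKM, so that dual oxidase was no longer first.

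**Figure D1:**
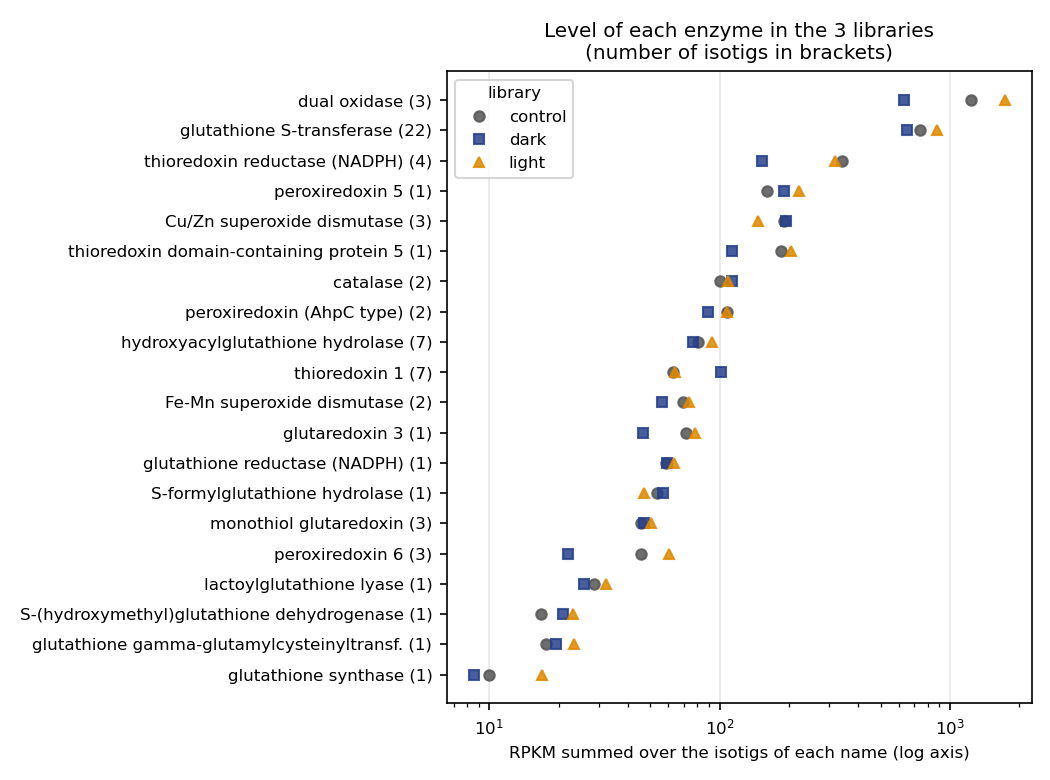
RPKM of each of the 20 enzyme names, summed over its isotigs (their number in brackets), in the control (circles), dark (squares) and light (triangles) libraries, on a log axis. Dual oxidase runs from 634 RPKM in the dark to 1742 under strong light, and thioredoxin 1 has its highest value in the dark, 102 RPKM against 62.7 in control.

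Reads did not lie evenly over every isotig. Evenly placed reads of 49 bases would have covered 99.9% of the dual oxidase isotig isotig10117 in control, while the deposited coverage was 21.8%, or 216 of 993 bases. In 14 of the 61 tested members (23.0%) the reads covered under 50% of what even placement gives, summed over the libraries, against 8.88% of all tested isotigs and 10.5% of those with a name. They were 6 glutathione S-transferase isotigs, 3 of peroxiredoxin 6, 2 of Cu/Zn superoxide dismutase and 1 each of dual oxidase, catalase and thioredoxin 1. Most carried consecutive numbers with another isotig of the same name. Only uniquely assigned reads were counted, and RPKM divides by the full length. Whether stretches shared between isotigs hold uncounted reads was not tested. They are called narrowly covered below.

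**Figure D2:**
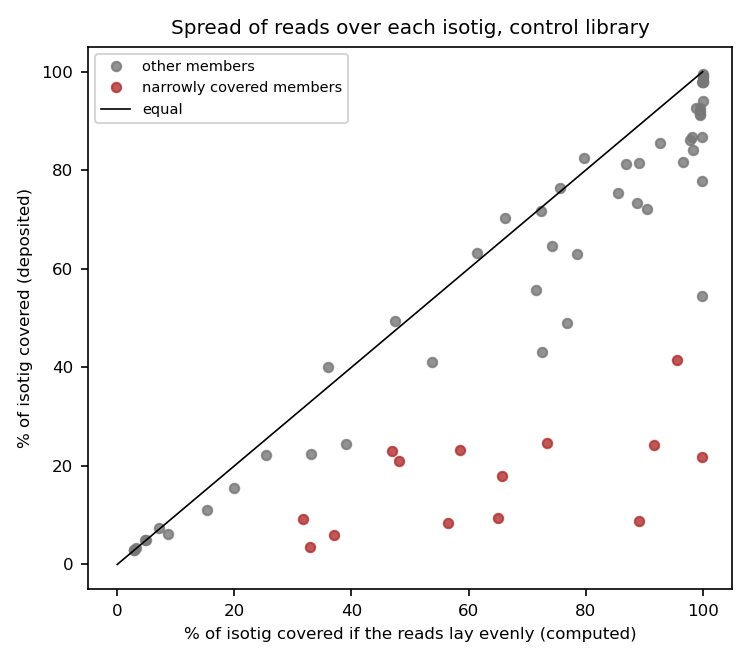
Percent of each member isotig covered by reads in the control library (vertical, deposited) against the percent that evenly placed reads would cover (horizontal, computed). Most members lie near the line of equality or somewhat under it, and the 14 narrowly covered members (red) lie far under it, such as a peroxiredoxin 6 isotig at 8.75% against 89.2%.

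The first comparison asks which members differed after strong light. Most did not differ by much: 57 of the 61 lay within 2-fold of control. At least 2-fold higher were 3 members (4.92%), against 7.77% of all tested isotigs, and at least 2-fold lower was 1 (1.64%), against 7.22%. Of these 4, only the glutathione S-transferase isotig04039 had a counting interval that excluded 1, a condition met on the higher side by 2.25% of all isotigs and on the lower side by 1.95%. With size factors, which set the median of all isotigs to about 0, the counts were again 3 and 1, against 7.53% and 7.31%. Summed over orthology names, 0 of 20 were 2-fold apart, against 3.14% higher and 2.35% lower of all 3276 names. At a limit of 1.5-fold, 12 members were higher and 4 lower, against 16.5% and 15.2%. The median log2 ratio of the members was 0.18 (order-statistic interval 0.09 to 0.24), and 42 of 61 lay above the median of all isotigs. Whatever the size of the ratio, the interval lay above 1 for 7 of the 61 members and below 1 for 4, or 11.5% and 6.56%, against 6.16% and 5.31% of all tested isotigs.

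In the dark library the members split. At least 2-fold higher were 7 members (11.5%), against 7.09% of all tested isotigs, and at least 2-fold lower were 10 (16.4%), against 24.0%. With size factors these were 8 members (13.1%, against 11.8%) and 5 (8.20%, against 16.6%). With the further condition that the interval excludes 1, 5 members were higher, a condition met by 2.57% of all isotigs, and 7 were lower, a condition met by 14.1%. Their median log2 ratio was -0.15 (-0.39 to 0.01), which was 0.16 above that of all isotigs, and 37 of 61 lay above the latter. The sign of this median thus depends on the scaling, being 0.15 with size factors. Summed over orthology names, 0 of 20 were at least 2-fold higher and 2 were lower, against 1.89% and 26.0% of all names. The 2 were thioredoxin reductase and peroxiredoxin 6. At a limit of 1.5-fold, 18 members were lower, against 38.9% of all isotigs, and 8 were higher, against 14.9%.

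**Figure D3:**
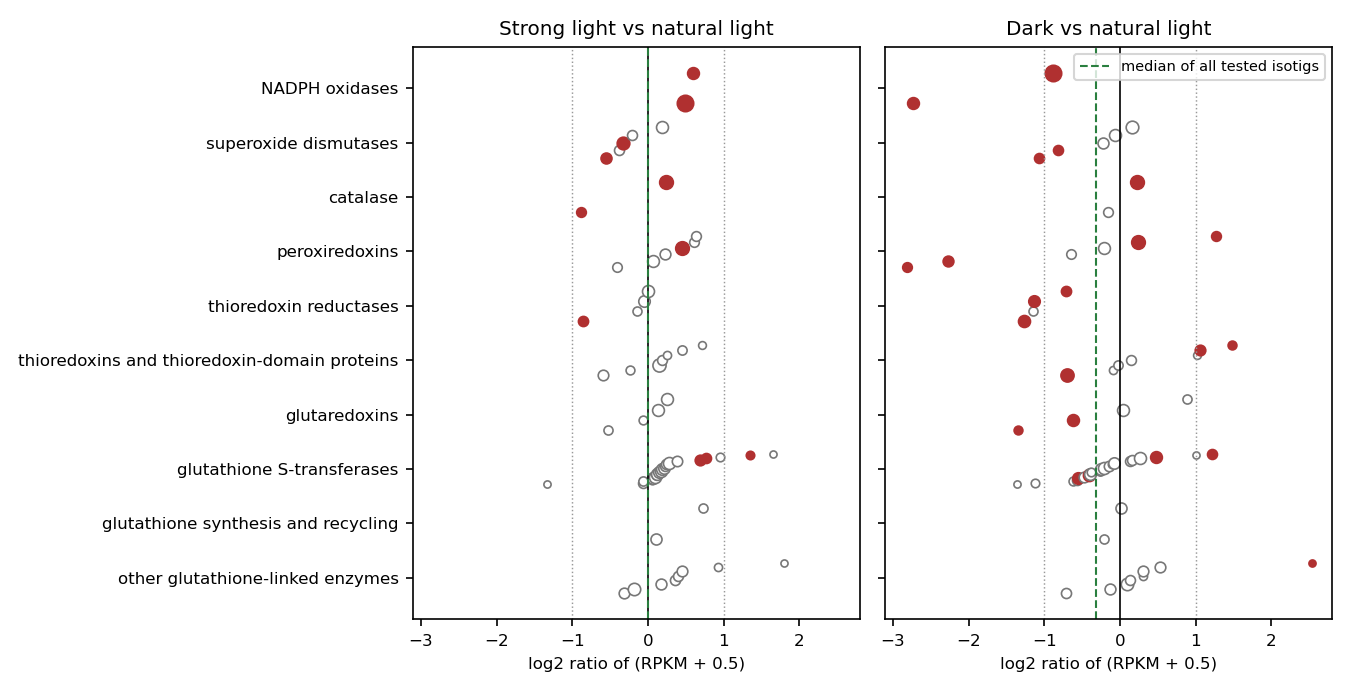
Log2 ratio of RPKM plus 0.5 for each of the 61 tested members, by role, for light vs control (left) and dark vs control (right). Filled red points have a 95% counting interval that excludes 1, point size grows with the read count, dotted lines mark 2-fold and the dashed line the median of all tested isotigs. The left panel is narrow around 0, while on the right dual oxidase and all 4 thioredoxin reductase isotigs lie left of the dashed line and peroxiredoxin 6 isotigs lie on both sides.

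Dual oxidase was the most abundant member and showed the clearest order of the 3 libraries. Its main isotig, isotig13477, was 2079 bases long, of which reads covered 99.5% in control. It had 2196 reads in the dark, 3750 in control and 5513 under strong light. These are 622, 1149 and 1612 RPKM, which placed it at rank 186, 116 and 75 of all isotigs in the respective library. It was 1.40-fold higher after strong light (1.35 to 1.46) and 1.85-fold lower in the dark (1.75 to 1.95). The log2 ratio after strong light was 0.49, and 4.90% of the 2430 well-counted isotigs (averaging 100 reads or more) had a ratio at least as high. The dark log2 ratio was -0.88, or -0.57 relative to all isotigs, and 18.4% of the well-counted isotigs had a ratio at least as low. The standard deviation of the log2 ratios of well-counted isotigs was 0.38 in light vs control and 0.72 in dark vs control. The smaller difference of isotig13477 after strong light thus lay nearer the edge of the well-counted isotigs than its larger difference in the dark.

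A second dual oxidase isotig, isotig10117, was narrowly covered and had 21 reads in the dark, 134 in control and 212 under strong light. It was 6.90-fold lower in the dark (4.34 to 11.5) and 1.51-fold higher after strong light (1.21 to 1.89). Its dark log2 ratio of -2.74 was among the lowest of the well-counted isotigs, 0.288% of which had a ratio at least as low. Its reads were 0.0357 of those of isotig13477 in control and 0.0385 under strong light, but 0.00956 in the dark. A further isotig of the same name, isotig10118, had 1 read, in control. Thyroid peroxidase, a haem peroxidase related to the outer domain of dual oxidase, gave its name to isotig20298 in the list of redox partners described below. That isotig had 567 reads in the dark, 979 in control and 1417 under strong light, and was 1.87-fold lower (1.68 to 2.08) and 1.38-fold higher (1.27 to 1.5). Its reads stood in a nearly fixed proportion to those of isotig13477, at 0.258 in the dark, 0.261 in control and 0.257 under strong light, and at 0.700, 0.708 and 0.697 per length. It was singled out after its values were seen. A smaller thyroid peroxidase isotig, isotig28377, had 9, 30 and 53 reads in the same order of libraries, while isotig15866 had 88, 140 and 120.

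**Figure D4:**
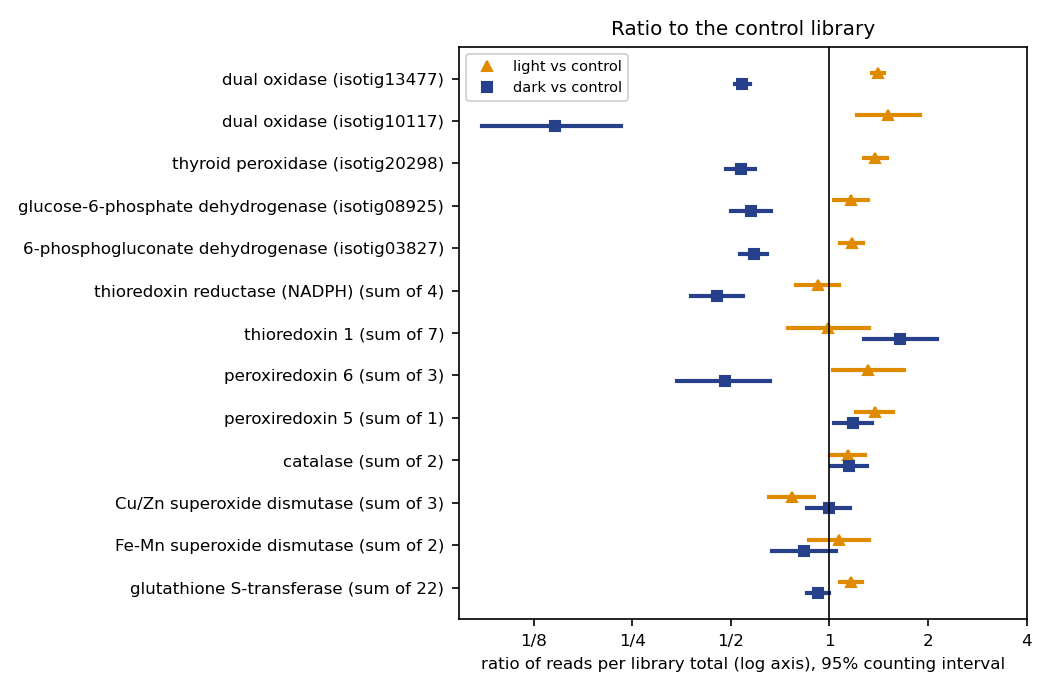
Ratio of reads per library total to control for light (triangles) and dark (squares), on a log axis, with 95% counting intervals as lines; enzymes with several isotigs are shown as sums, except dual oxidase. Both dual oxidase isotigs, the thyroid peroxidase isotig and 2 NADPH-producing enzymes lie left of 1 in the dark and right of 1 under strong light, thioredoxin reductase and thioredoxin 1 lie on opposite sides in the dark, and catalase lies within 1.15-fold of 1 in both.

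Superoxide dismutases come as copper-zinc enzymes of the cytosol and outer space and as iron-manganese enzymes, which in animals are mitochondrial manganese proteins. The leading copper-zinc isotig, isotig17129, had 230 control reads, 278 dark reads and 192 reads under strong light (140, 157 and 112 RPKM). Strong light was 1.25-fold below control (1.03 to 1.53), and its dark ratio of 1.12 (0.94 to 1.34) was within counting error. The narrowly covered isotig07563 had 75, 69 and 53 reads and was 1.48-fold lower after strong light (1.03 to 2.15). Summed over its 3 isotigs, the copper-zinc enzyme was 1.31-fold lower after strong light (1.11 to 1.53) and did not differ detectably in the dark (1.01-fold lower, 0.87 to 1.17), although its isotigs differed among themselves. The narrowly covered isotig07564 had 40, 24 and 32 reads and was 1.80-fold lower in the dark (1.06 to 3.13), with a log2 ratio of -0.82, or -0.51 with size factors. The Fe-Mn isotig isotig14099 had 131, 135 and 156 reads, differences not detectable at this depth. The other one, isotig15621, had 40, 20 and 36 reads and was 2.16-fold lower in the dark (1.23 to 3.91), a log2 ratio of -1.07, or -0.77 with size factors.

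Catalase, the peroxisomal enzyme that splits hydrogen peroxide without a reducing partner, was slightly above control in both other libraries. Its main isotig, isotig06118, had 438 control reads, 552 dark reads and 541 reads under strong light (86.4, 101 and 102 RPKM). It was 1.17-fold higher in the dark (1.03 to 1.32) and 1.18-fold higher after strong light (1.04 to 1.34). The narrowly covered isotig06119 had 31, 30 and 17 reads and was 1.91-fold lower after strong light (1.02 to 3.68).

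Peroxiredoxins reduce peroxides with a reactive cysteine. Peroxiredoxin 5 (isotig14528), an atypical 2-Cys enzyme found in mitochondria and peroxisomes of mammals, had 388 control reads, 495 dark reads and 558 reads under strong light (161, 190 and 221 RPKM). It was 1.37-fold higher after strong light (1.2 to 1.57), and 6.26% of well-counted isotigs had a log2 ratio at least as high as its 0.46. Both treated libraries were above control, and in the dark the ratio was 1.18 (1.03 to 1.35). The peroxiredoxin isotig isotig18614, named for the alkyl hydroperoxide reductase subunit, had 126, 118 and 138 reads and no detectable difference.

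Peroxiredoxin 6, the 1-Cys enzyme that uses glutathione, had 3 isotigs of 1588 bases each, all narrowly covered, and they did not go one way in the dark. The isotig05338 had 72 control reads, 15 dark reads and 88 reads under strong light, and was 5.19-fold lower in the dark (2.95 to 9.75). The isotig05339 had 27, 3 and 44 reads and was 9.73-fold lower (3.0 to 50.1). The isotig05340 had 15, 41 and 25 reads and was 2.53-fold higher (1.37 to 4.92). Their covered stretches were at most 139 bases long. As a sum the enzyme had 114, 59 and 157 reads, 2.09-fold lower in the dark (1.51 to 2.91) and 1.31-fold higher after strong light (1.03 to 1.69). The dark log2 ratio of the sum was -1.05, or -0.73 with size factors, which is no longer past 2-fold. A sum over isotigs does not recover reads from stretches that they share.

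In the thioredoxin system the dark values of its parts lay on opposite sides of control. Thioredoxin reductase, the flavoenzyme that recharges thioredoxin, was lower in all 4 of its isotigs. The isotig17891 had 177 control reads, 79 dark reads and 185 reads under strong light (117, 48.2 and 117 RPKM), and was 2.42-fold lower in the dark (1.85 to 3.20). The isotig26887 had 120, 59 and 121 reads and was 2.20-fold lower (1.6 to 3.06). Coverage of the former was 97.8% of its length in control and 95.3% in the dark, and of the latter 98.9% and 86.0%. The control and light values of both were alike. The isotig16145 had 49, 32 and 28 reads and was lower in both other libraries, 1.66-fold in the dark (1.04 to 2.67) and 1.83-fold after strong light (1.13 to 3.03). The sum was 2.21-fold lower in the dark (1.84 to 2.65), against a ratio of 0.92 after strong light (0.79 to 1.07). Relative to all isotigs the median of the 4 dark log2 ratios was -0.83, and with size factors 0 of the 4 passed 2-fold.

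Thioredoxin 1, the small protein that passes the electrons on, was higher in the dark as a sum, and the difference lay mainly in a pair of neighbouring isotigs. The isotig10271 had 38 control reads, 87 dark reads and 26 reads under strong light, and was 2.12-fold higher in the dark (1.43 to 3.19). Its neighbour isotig10272, narrowly covered, had 8, 25 and 7 reads and was 2.89-fold higher (1.26 to 7.41). The intervals of the other isotigs included 1: isotig10845 had 25, 30 and 30 reads, isotig20972 had 16, 17 and 23, isotig08940 had 7, 7 and 9, isotig08939 had 3, 8 and 6, and isotig21884 had 1, 0 and 1. The 7 isotigs as a sum had 98, 174 and 102 reads, 1.64-fold higher in the dark (1.27 to 2.13). With size factors the log2 ratio of the sum was 1.01, just past 2-fold, and the control and light sums were alike. Thioredoxin domain-containing protein 5 (isotig15763), a disulfide isomerase of the endoplasmic reticulum, had 363, 241 and 419 reads and was 1.63-fold lower in the dark (1.38 to 1.93).

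Glutaredoxins use glutathione to reduce disulfides, and the monothiol forms help to carry iron-sulfur clusters. Glutaredoxin 3 (isotig16062) had 134 control reads, 94 dark reads and 154 reads under strong light, and was 1.54-fold lower in the dark (1.18 to 2.03). The main monothiol glutaredoxin, isotig13386, had 118, 131 and 148 reads, with no detectable difference. Of the smaller pair of neighbours, isotig07480 had 13, 27 and 9 reads and isotig07481 had 16, 6 and 16. The latter was 2.88-fold lower in the dark (1.07 to 9.0), while the former had a ratio of 1.92 (0.96 to 4.05), with a log2 ratio of 0.88, or 1.18 with size factors. Summed with isotig13386 the ratio was 1.03 (0.82 to 1.30).

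Glutathione S-transferases were the largest group, with 22 isotigs, 21 of them tested. Their levels in control ran up to 115 RPKM with a median of 15.4 over the 22. The 3 most abundant, isotig21949, isotig16538 and isotig16629, had 119, 164 and 144 reads in control, 98, 133 and 134 in the dark, and 142, 183 and 183 under strong light. Their differences from control were at most 1.33-fold, in the dark library for isotig16538 (1.05 to 1.69). After strong light 18 of the 21 lay above control, with a median log2 ratio of 0.19 (0.09 to 0.38), and the sum of reads was 1.17-fold higher (1.08 to 1.26). The isotig04039 had 6, 6 and 17 reads, 2.70-fold higher after strong light (1.02 to 8.38). In the dark 6 of the 21 lay above control and 15 below, and 12 of the 21 above the median of all isotigs. The isotig08778, narrowly covered, had 20, 52 and 25 reads and was 2.40-fold higher in the dark (1.41 to 4.25), while its neighbour isotig08777 had 125, 162 and 148 reads. The summed ratio was 0.92 in the dark (0.85 to 1.0), and log2 0.13 with size factors, so the direction of the group in the dark depends on the scaling.

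Glutathione reductase (isotig20794), which recharges glutathione, had 68 control reads, 74 dark reads and 77 reads under strong light, alike within counting error. Glutathione synthase (isotig19582), the last step of glutathione synthesis, had 13, 12 and 23 reads, and its light ratio of 1.69 (0.82 to 3.63) was within counting error. Among the enzymes that use glutathione to clear aldehydes, S-formylglutathione hydrolase (isotig13336) had 193, 222 and 178 reads, and lactoylglutathione lyase (isotig15386), the first step against methylglyoxal, had 59, 58 and 70. Both were alike within counting error. Hydroxyacylglutathione hydrolase, the next step, had 7 isotigs with 91, 119 and 101 reads in all. Its most abundant isotig, isotig27063, had 35, 23 and 47 reads, and its name is one of the uncertain ones. The isotig04636 had 0 control reads, 6 dark reads and 3 reads under strong light, and the interval of its dark ratio, which has no upper end against a count of 0, begins at 1.09.

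Genes that work with the members were taken from a list of 47 isotigs, 42 of them tested. At least 2-fold higher after strong light were 2 and lower 2 (4.76% each, against 7.77% and 7.22% of all isotigs). In the dark 3 were higher (7.14%, against 7.09%) and 12 lower (28.6%, against 24.0%). With size factors they were 4 (9.52%, against 11.8%) and 9 (21.4%, against 16.6%). The median log2 ratio was 0.21 after strong light and -0.56 in the dark, or -0.25 relative to all isotigs. NADPH, which feeds dual oxidase and both reductases, comes largely from the pentose phosphate pathway. Glucose-6-phosphate 1-dehydrogenase (isotig08925), its entry step, had 524 control reads, 327 dark reads and 638 reads under strong light, 1.73-fold lower (1.51 to 2.00) and 1.16-fold higher (1.03 to 1.31). The next dehydrogenase, 6-phosphogluconate dehydrogenase (isotig03827), had 1105, 702 and 1353 reads, 1.70-fold lower (1.55 to 1.87) and 1.17-fold higher (1.08 to 1.27). Such ratios were common. Of the well-counted isotigs, 21.7% and 22.8% had a dark log2 ratio at least as low as isotig08925 and isotig03827. After strong light 20.5% and 19.5% had one at least as high. Both had dark lowest and light highest, the order of dual oxidase, but the 12 tested isotigs of the NADPH-supply list did not all share it. That list was taken by name. It also holds isotig13396, isotig19850 and isotig21889, named isocitrate dehydrogenase (NAD+), a form that makes NADH and not NADPH. After strong light 0 of the 12 were at least 2-fold higher and 2 were lower. One was isotig03728, a narrowly covered isocitrate dehydrogenase, with 43, 41 and 10 reads, 4.5-fold lower after strong light (2.23 to 10.1). The other was isotig21889, named for the NAD+ form of that enzyme, with 18, 7 and 8 reads, 2.36-fold lower (0.98 to 6.26). In the dark 0 of the 12 were higher and 3 lower (25%, against 24.0% of all isotigs).

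Among the regulators, the transcription factor named nuclear factor erythroid 2-related factor 1/3 (isotig06127), of the family that switches on antioxidant genes in vertebrates, had 498 control reads, 335 dark reads and 702 reads under strong light. It was 1.61-fold lower in the dark (1.40 to 1.85) and 1.35-fold higher after strong light (1.2 to 1.51). Of the well-counted isotigs, 26.3% had a dark log2 ratio at least as low, and 7.20% a light log2 ratio at least as high. All 5 tested regulators had lower values in the dark, 4 of them at least 2-fold (against 24.0% of all isotigs), or 3 with size factors (against 16.6%). They were 3 consecutive isotigs of that factor, isotig06127 to isotig06129, of which the last 2 were narrowly covered, and 2 of sestrin. On the deposited scale their median log2 ratio was -1.40, or -1.09 relative to all isotigs. Sestrin (isotig14828), a stress-induced protein, had 20, 5 and 27 reads. The other tested sestrin isotig, isotig27055, had 3, 1 and 2, and its dark interval included 1. With an interval that excludes 1, 3 of the 5 regulators were at least 2-fold lower in the dark, against 14.1% of all isotigs. Kelch-like protein 19, known in vertebrates as the inhibitor of the related factor 2 and not of factor 1/3, was added after its values were seen. Of its 4 isotigs, isotig20235 had 27, 8 and 34 reads, isotig21863 had 21, 9 and 31, and isotig25056 had 13, 4 and 16. The dark intervals of these excluded 1. The remaining isotig16711 had 13, 9 and 9 reads, and its dark interval included 1. At least 2-fold lower in the dark were 3 of the 4 (against 24.0% of all isotigs), or 2 with size factors (against 16.6%). On the deposited scale the selenium group had no member 2-fold apart in either comparison. With size factors 1 of the 9 was higher in the dark. It was the narrowly covered isotig05216, with 20, 38 and 40 reads and a dark log2 ratio of 0.76, or 1.06 with size factors. A selenoprotein W-related isotig (isotig25380) had 217, 160 and 450 reads and was 1.98-fold higher after strong light (1.68 to 2.34). The more abundant isotig of that name, isotig14181, had 1086, 1436 and 1307 reads. Glutamate--cysteine ligase (isotig16971), the rate-limiting enzyme of glutathione synthesis, had 29, 33 and 51 reads and was 1.68-fold higher after strong light (1.04 to 2.75), with a dark ratio of 1.05 (0.62 to 1.80). The iron, haem and metal group had 3 isotigs, all named biliverdin reductase. They did not go one way in the dark. The most abundant (isotig16207) had 24, 8 and 22 reads and was 3.24-fold lower in the dark (1.41 to 8.35), while isotig13823 had 11, 20 and 7 and isotig12085 had 2, 6 and 3, with dark log2 ratios of 0.68 and 1.27 that were within counting error. Neutrophil cytosolic factor 2 (isotig11260), a subunit of phagocyte NADPH oxidase in mammals, had 17, 8 and 19 reads.

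Strong light and darkness can also be set against each other, with the same light and dark libraries as above, so the values are not independent of the earlier ones. Of the 61 members 13 were at least 2-fold higher under strong light (21.3%, against 26.2% of all isotigs) and 3 were lower (4.92%, against 8.09%). With size factors these were 7 and 7, against 18.5% and 14.1%. With an interval that excludes 1, they were 12 and 3, against 16.5% and 3.59%. Summed over names, 3 of 20 were higher (15.0%) and 0 were lower, against 30.1% and 2.20% of names. The 3 were dual oxidase, peroxiredoxin 6 and thioredoxin reductase. With size factors their log2 ratios were 1.12, 1.11 and 0.72, so thioredoxin reductase was no longer past 2-fold. At 1.5-fold, 21 isotigs were higher and 8 lower, against 40.3% and 16.9%. Dual oxidase isotig13477 was 2.59-fold higher under strong light than in the dark (2.47 to 2.72). Its log2 ratio was 1.37, or 1.04 with size factors, and 8.68% of the well-counted isotigs had a ratio at least as high. Thioredoxin 1 isotig10271 was 3.24-fold lower (2.07 to 5.23). For some well-counted members both libraries were close. Catalase isotig06118 had a ratio of 1.01 (0.90 to 1.14) and peroxiredoxin 5 isotig14528 one of 1.16 (1.03 to 1.32).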

How the data were processed

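Per the labels' protocols, libraries came from poly(A)-selected, fragmented RNA primed with random hexamers; they record neither strand marking nor molecular identifiers. Reads that are copies of the same molecule can therefore not be recognised, and the counting intervals do not allow for them. CASAVA 1.5 is named in the submitters' processing notes. Assembler and aligner: not given in the sources used here. Per the file headers, the authors deposited for each isotig the count of uniquely assigned reads, the percent of its length covered, and RPKM. The counts summed to the header totals, and an isotig missing from a table was taken as 0. Isotigs with 1 read gave the read length of 49 bases.

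Log2 ratios used a pseudocount of 0.5 RPKM and a filter at a mean of 1 RPKM. This scale understates the ratios of low isotigs. Read ratios have exact conditional binomial (Clopper-Pearson) 95% intervals. With 1 library per group, no count model was fitted to test conditions; edgeR 4.0.16 gave only TMM factors. Size factors were medians of ratios over isotigs with reads in all 3 libraries. Only the log2 ratio and the counting interval were checked on simulated data, with Poisson counts for light vs control. Such counts hold no variation beyond counting error. Python 3.11.15, numpy 2.4.6, pandas 2.3.3, scipy 1.17.1 and R 4.3.3 were used. The members, lists and rules were chosen with earlier results of these data known. Named were the 3 most abundant members of each role and members at least 2-fold apart from control whose interval excludes 1; others named in passing were chosen after their values were seen. The wording for fibrillar collagen was adapted to the files. The reference gene table shares 0 identifiers with the isotigs. Isotigs of 1 gene can divide its reads.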

Additional observations from a re-analysis of the deposited data

How the results depend on the processing

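No paired analysis was possible because each group has 1 library. Counts are of members at least 2-fold higher and lower. In light vs control (3 and 1 as reported) a mean of at least 5 RPKM gave 1 and 0, a mean of at least 20 reads 0 and 0, intervals that exclude 1 gave 1 and 0, sums over orthology 0 and 0, a 1.5-fold limit 12 and 4, and no filter 2 lower. In dark vs control (7 and 10), 5 were lower with size factors and with TMM factors. There 4 were higher at 5 RPKM, 20 reads gave 3 and 6, sums gave 0 and 2, the 1.5-fold limit gave 18 lower, and 4 were higher without narrowly covered members, an alternative chosen after seeing the data. In light vs dark (13 and 3), size factors gave 7 and 7 and TMM factors 8 and 6. No filter gave 6 lower, 20 reads gave 1 lower, sums 3 and 0, the 1.5-fold limit 21 and 8, and 8 were higher without narrowly covered members. The members' median log2 ratio changed sign in the dark, from -0.15 to 0.15 with size factors and 0.14 with TMM factors, and in light vs dark from 0.31 to -0.0151 and -0.00898. Both factors move all isotigs together by construction. The cause of the other changes was not tested, apart from fewer members passing a stricter filter or limit. All other values stayed within 1.5 times or within the interval of the median, also without dual oxidase. Over 3 scalings and 3 pseudocounts the direction was kept by 61 of 61 members in light vs control, 47 in dark vs control and 46 in light vs dark. Depth limits most single isotigs: the median mean count of the tested members was 36.3 reads, against 18 over all tested isotigs.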
